A study of Sus scrofa with 75 samples.

Results

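The miR-26 and miR-29 families were followed in small RNA libraries of peripheral blood mononuclear cells (PBMCs) from young pigs. Members were all mature miRNAs named miR-26a, miR-26b, miR-29a, miR-29b or miR-29c, with either arm of the hairpin, and each was represented by its most abundant table entry. This gave 7 of the 457 mature names in the table, 3 of miR-26 (miR-26a, miR-26b-5p and miR-26b-3p) and 4 of miR-29 (miR-29a-3p, miR-29a-5p, miR-29b and miR-29c). A test was possible for 6 of them, because miR-29a-5p, the minor arm of its hairpin, had 1 read in 1 topsoil library at day 56 and 0 in the other 38. Tests covered 209 miRNAs, those detected in 17 or more libraries with more than 2 reads on average.

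The libraries came from 13 synthetic large white pigs, 8 control pigs reared conventionally in farrowing crates and 5 topsoil pigs given fresh topsoil every day from day 4 to day 20. Blood was drawn from each at ages of 11, 20 and 56 days (39 libraries), and all pigs lived without soil after weaning at day 20. Treatment and age were taken from the column names, which the sample descriptions share. The sample characteristics in the same records matched them in treatment for 19 libraries, in age for 14 and in both for only 6 of 39. Results under those labels are given for the calls between ages over both treatments and for miR-26b-5p and miR-29a-3p between treatments at day 20. The age fits under those labels had no pig block, and changes within 1 treatment were not refitted. Control pigs are numbered 1 to 8 and topsoil pigs 1 to 5, and a number is the same pig at each age.

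A miRNA guides a silencing complex to messenger RNAs that pair with its seed, the bases at positions 2 to 8. The miR-26 family is known as a brake on cell growth, with the histone methyltransferase EZH2 among its targets, and its genes lie inside genes of the CTDSP phosphatases. The miR-29 family is known for repressing collagens and DNA methyltransferases, and in T cells and natural killer cells it represses TBX21, EOMES and IFNG, which drive the interferon gamma program.

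The mature sequences are shown because the families are defined by their seeds and because the miR-29 members differ by few bases. RefSeq's annotation of the authors' build, Sscrofa11.1, held 4 of the 7 members. Bases 2 to 8 are in capitals.
miR-26a: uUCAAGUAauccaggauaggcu
miR-29a-3p: cUAGCACCaucugaaaucgguua
miR-29b: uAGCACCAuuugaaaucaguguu
miR-29c: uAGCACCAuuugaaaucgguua

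The annotated miR-29a-3p starts 1 base upstream of miR-29b and miR-29c. The stretch AGCACCA, the seed of miR-29b and miR-29c, therefore begins at base 3 of miR-29a-3p and at base 2 of the others. Of the 395 mature miRNAs annotated, only these 3 miR-29 products held AGCACCA within their first 10 bases, and only miR-26a held UCAAGUA there. With the extra 5′ base of miR-29a-3p set aside, miR-29c and miR-29a-3p differed over 22 bases by 1 substitution, U10C, counted from 1 at the 5′ end of miR-29c. miR-29c and miR-29b differed over 22 bases by 3, G18A, U21G and A22U, and miR-29b had 1 more base at its 3′ end. Reads of miR-29a-3p and miR-29c are thus told apart by a single internal base and by their ends.

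MIR26A lies in an intron of CTDSP2, on the same strand, with its mature miRNA at chr5:23112793-23112814 on the minus strand. The miR-29 genes form 2 pairs outside any annotated gene. MIR29B-1 and MIR29A are on the plus strand of chromosome 18, 322 bases apart, with mature miRNAs at chr18:18039679-18039701 and chr18:18040083-18040105. MIR29B-2 and MIR29C are on the plus strand of chromosome 9, 475 bases apart, with mature miRNAs at chr9:135019130-135019152 and chr9:135019691-135019712. The mature miR-29b of both loci is the same sequence, so its reads cannot be assigned to either pair.

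With 1 entry per name, libraries held between 1634831 and 13494765 counts. A single miRNA, miR-486, which is abundant in red blood cells, took from 11.8% to 95.5% of these counts. The median share of miR-486 in the control pigs was 91.3% at day 11, 77.7% at day 20 and 42.3% at day 56. Topsoil pigs had median shares of 88.9%, 89.2% and 37.9% at these ages. Only 389906 to 6343113 counts per library were left for all other miRNAs, with the fewest in a control library of day 11, and this sets the precision for the rarer members. Because the share of miR-486 moved with age, 2 scales are used, and levels of the members are on the first unless the second is named. The first is CPM (counts per 1000000 counts) after scaling by the 75% quantile (upper quartile), the scaling of the study, and the second is CPM of all counts other than miR-486, called CPM without miR-486.

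The 3 most abundant members kept the same order of levels in every library. Mean CPM without miR-486 was 4565 for miR-26a, 1320 for miR-26b-5p, 136 for miR-29a-3p, 32.8 for miR-26b-3p, 16.1 for miR-29c and 2.10 for miR-29b. By this mean miR-26a ranked 23rd, miR-26b-5p 42nd and miR-29a-3p 93rd of all miRNAs. Reads of miR-26a exceeded those of miR-26b-5p in 39 of 39 libraries, those of miR-26b-5p exceeded miR-29a-3p in 39, and those of miR-29a-3p exceeded miR-26b-3p in 39. The order of the next neighbours was less regular, with miR-26b-3p above miR-29c in 29 libraries and miR-29c above miR-29b in 34. Mature miRNAs have nearly the same length, so reads were compared between them without a correction for length.

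The question asked of age was how PBMC miRNA changed from the suckling pig through weaning to the end of the nursery. Between day 11 and day 20 no member was called in the mean over both treatments (0 of 6, with 0% of the 209 miRNAs called in edgeR's quasi-likelihood test at a Benjamini-Hochberg adjusted p below 0.10, 12 at an unadjusted p below 0.05, miR-29b and miR-29c among them, and 4 called by DESeq2, none of them a member). In the control pigs alone miR-26b-5p was called over this step, beside 5.26% of all miRNAs. So was miR-29b (adjusted p 0.087 from edgeR), but against 0 reads in all 8 control libraries of day 11. Between day 20 and day 56, 3 of 6 members rose (miR-26a, miR-26b-5p and miR-29a-3p), while 16.3% of the tested miRNAs were called in either direction and 10% were called higher. Between day 11 and day 56, 5 of 6 rose (all but miR-26b-3p), while 25.4% were called in either direction (53, of which 36 higher) and 17.2% were called higher. One of the 5, miR-29b, had a read in only 21 libraries and passed the filter on low counts through the later ages where it was higher, so the count including it is no support for the share of members. Over the 209 miRNAs this step had a median log2 fold change of 0.46, and the split of calls moved with the scaling, with 161 of 162 calls higher for total counts and 16 of 42 higher for library sizes without miR-486. With the latter the median over all was 0.14, and miR-29a-3p was called higher, as was miR-29b with the same limit, and 7.66% of all miRNAs were called higher. From day 20 to day 56 the same scaling called 1 member, miR-29a-3p, higher against 4.78% of all. With the treatments and ages of the sample characteristics, 0 of 6 members and 0% of the 209 miRNAs were called at either step, so this count is no result about the members.

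**Figure D1:**
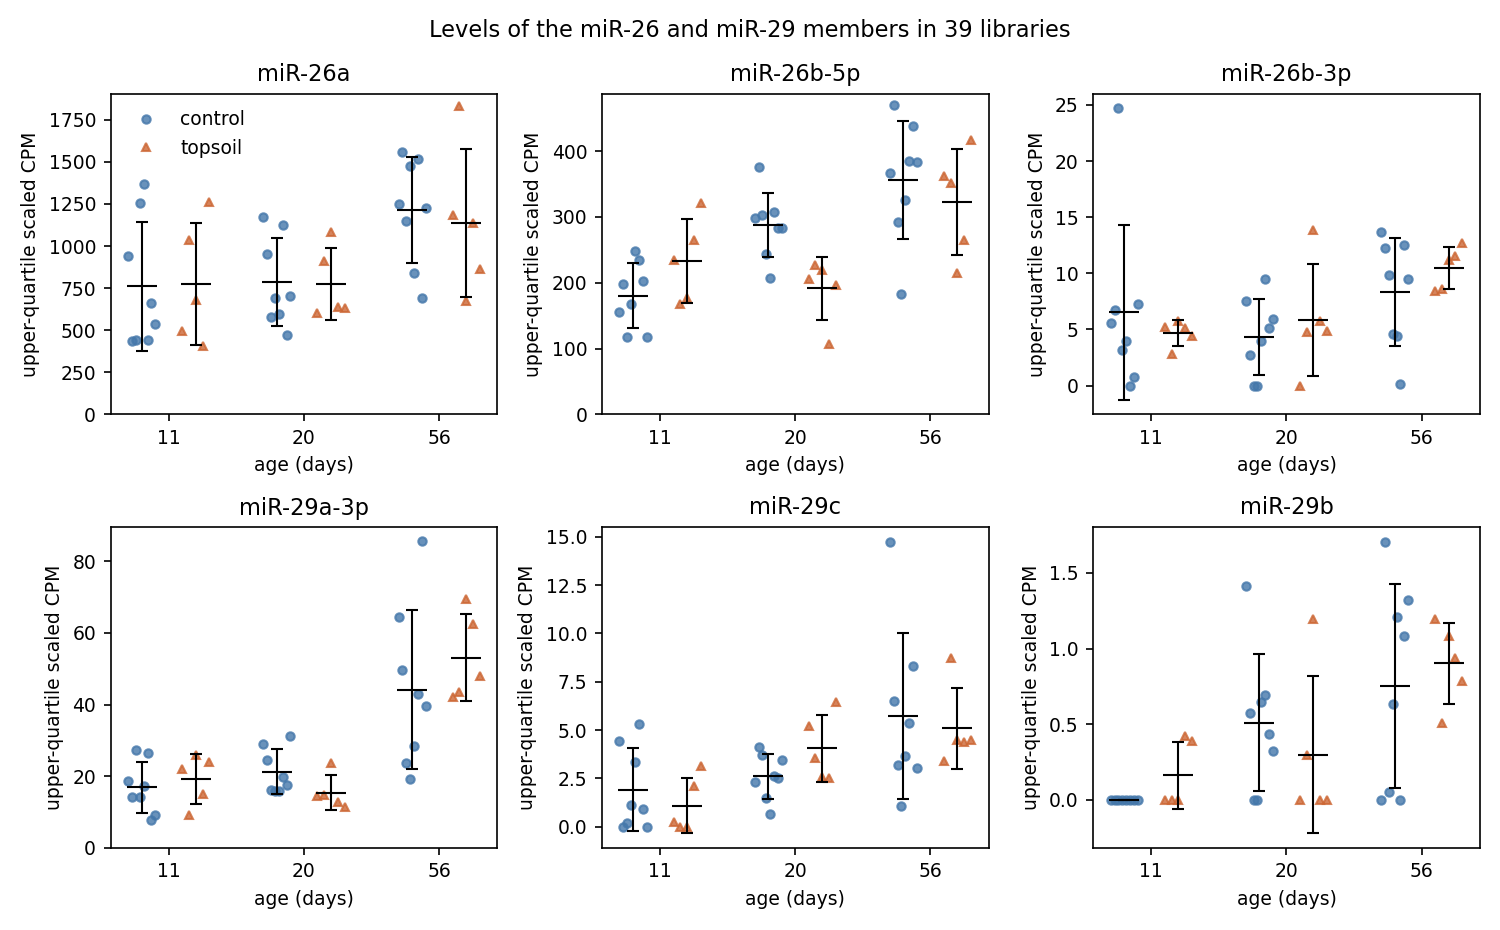
Upper-quartile scaled CPM (vertical axis) of 6 members at 3 ages (horizontal axis, days) in control pigs (circles) and topsoil pigs (triangles), 1 point per library, with the mean and SD as horizontal and vertical bars. The 5 topsoil libraries of miR-29a-3p at day 56 lie between 42.2 and 69.5 CPM, above every topsoil library of the earlier ages, a separation not counted over all miRNAs. miR-29b is at 0 in all 8 control libraries of day 11.

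miR-29a-3p, the most abundant member of its family, carried the clearest change. In the topsoil pigs its upper-quartile scaled level at day 11 was 22.1, 9.2, 25.9, 15.1 and 24.0 CPM in pigs 1 to 5. Their day 20 values were 14.5, 14.7, 23.8, 12.7 and 11.4 CPM, and their day 56 values were 42.2, 43.4, 69.5, 62.5 and 47.9 CPM. Every topsoil library of day 56 was thus above every topsoil library of day 11 and day 20. In the control pigs it was lowest at 7.81, median 15.7 and highest at 27.2 CPM at day 11, and 16.0, 18.6 and 31.3 CPM at day 20. At day 56 the control values were 19.2, 41.2 and 85.7 CPM, and they overlapped those of the earlier ages. All 13 pigs had more miR-29a-3p at day 56 than at day 20 on both scales, and 12 of 13 had more at day 56 than at day 11 (11 of 13 without miR-486).

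From day 11 to day 56 miR-29a-3p rose 2.77-fold (log2 fold change 1.47, SE 0.29, adjusted p 0.00036 from edgeR), which is 1.01 above the median of all miRNAs. From day 20 to day 56 it rose 2.86-fold (log2 1.51, SE 0.31, adjusted p 0.00090 from edgeR). With library sizes without miR-486 the log2 fold changes were 1.13 (SE 0.31, adjusted p 0.0080 from edgeR) and 1.25 (SE 0.32, adjusted p 0.0073). The highest control value at day 56 was in pig 7, whose library at that age was the shallowest of the 39. Without that library the log2 fold change from day 11 to day 56 was 1.32 (SE 0.28, adjusted p 0.00085 from edgeR). With the labels of the sample characteristics it was 0.38 (adjusted p 0.974 from edgeR) from day 11 to day 56 and -0.0452 from day 20 to day 56. The rise from day 11 was 1.41 (SE 0.38) in control pigs and 1.53 (SE 0.44) in topsoil pigs, and the difference between them, 0.12 (SE 0.56), was smaller than its error. In these separate contrasts 17.7% and 13.4% of all miRNAs were called.

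miR-29c, which is transcribed from the other miR-29 locus, was measured from few reads. Its control values were lowest at 0, median 1.02 and highest at 5.31 CPM at day 11, and 1.05, 4.53 and 14.8 CPM at day 56, with overlapping ranges. In the topsoil pigs it was 0.276, 0, 0, 2.10 and 3.12 CPM at day 11 and 3.40, 8.74, 4.47, 4.37 and 4.51 CPM at day 56. The topsoil ranges of these 2 ages did not overlap, which was not counted over all miRNAs, and 12 of all 13 pigs had more at day 56 than at day 11. On CPM without miR-486 they overlapped, with up to 18.4 at day 11 and from 16.0 at day 56, and 10 of 13 pigs had more. At day 20 the upper-quartile scaled median of miR-29c was 2.58 CPM in control pigs and 3.57 CPM in topsoil pigs. Its log2 fold change was 1.63 (SE 0.78, adjusted p 0.844 from edgeR) from day 11 to day 20. From day 20 to day 56 it was 0.82 (SE 0.83, adjusted p 0.577 from edgeR), and neither step was called. The fitted rise from day 11 to day 56 was 5.47-fold (log2 2.45, SE 0.85, adjusted p 0.031 from edgeR). It missed the threshold with library sizes without miR-486 (log2 2.05, SE 0.87, adjusted p 0.118 from edgeR), without topsoil pig 2 (log2 1.82, adjusted p 0.168), and with the labels of the sample characteristics (log2 0.42, adjusted p 0.974).

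miR-29b was at the limit of detection, with 275 reads in all and a read in 21 of 39 libraries. In the 8 control libraries of day 11 it had 0 reads, while at day 20 it had 55 reads in 6 of 8 libraries and at day 56 119 reads in 6 of 8. In the topsoil pigs it had 9 reads in 2 of 5 libraries at day 11, 12 reads in 2 of 5 at day 20 and 80 reads in 5 of 5 at day 56. A count of 0 over the control group of day 11 allows up to 3 counts, or 0.0542 upper-quartile scaled CPM, so the pooled control level at day 56, 0.858 CPM, was at least 15.8-fold higher. On the scale without miR-486 it was at least 11.3-fold higher. These limits cover counting error only. The change from day 11 to day 56 had an adjusted p of 0.010 from edgeR, of 0.024 with library sizes without miR-486 and of 0.974 with the labels of the sample characteristics. Its fitted fold change is not given, since it depends on the constant added to the zeros, and miR-29b passed the filter on low counts through the libraries of the later ages.

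In edgeR with upper-quartile scaling and all pigs, the fold changes of the miR-26 members up to day 56 were smaller in size than those of miR-29a-3p. This difference was not tested. With 1 pig left out, miR-26b-3p reached a log2 fold change of up to 1.74 from day 20 to day 56, and miR-29a-3p up to 1.57. miR-26b-5p in control pigs was lowest at 118, median 183 and highest at 248 CPM at day 11, and 183, 375 and 469 CPM at day 56. Topsoil pigs 1 to 5 had 235, 167, 177, 265 and 321 CPM at day 11 and 362, 351, 215, 265 and 417 CPM at day 56. All 13 pigs had more at day 56 than at day 11 on this scale, although the ranges of the ages overlapped in both treatments, and 10 of 13 had more without miR-486. The rise was 1.70-fold (log2 0.77, SE 0.17, adjusted p 0.0011 from edgeR) against the median of 0.46 over all miRNAs. It was 1.07 (SE 0.22, adjusted p 0.0010 from edgeR) in control pigs, where the median of all was 0.28, and 0.47 (SE 0.26, adjusted p 0.286) in topsoil pigs, where the median of all was 0.50, and the difference between them was -0.60 (SE 0.33, p 0.082, adjusted p 0.994 from edgeR). With library sizes without miR-486 it was 0.44 (SE 0.18, adjusted p 0.102 from edgeR) and missed the threshold. From day 20 to day 56 the log2 fold change was 0.61 (SE 0.18, adjusted p 0.022 from edgeR), and 0.37 (adjusted p 0.240) with library sizes without miR-486. With the labels of the sample characteristics the direction turned, to -0.0370 from day 11 (adjusted p 0.992 from edgeR) and -0.24 from day 20 (adjusted p 0.981).

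miR-26a, the most abundant member, varied widely between pigs of 1 age. Its control values were lowest at 435, median 597 and highest at 1368 CPM at day 11, and 691, 1237 and 1559 CPM at day 56. Topsoil pigs 1 to 5 had 498, 1033, 680, 407 and 1263 CPM at day 11 and 1184, 1834, 674, 1136 and 863 CPM at day 56. The ranges overlapped in both treatments, and 10 of 13 pigs had more at day 56 than at day 11. The rise was 1.59-fold (log2 0.67, SE 0.22, adjusted p 0.023 from edgeR), which is 0.21 above the median of all miRNAs. With library sizes without miR-486 it was 0.34 (SE 0.24, adjusted p 0.371 from edgeR), with 8 of 13 pigs higher. The call was also lost with DESeq2 (log2 0.47, adjusted p 0.121), with every miRNA with a read kept (log2 0.58, edgeR adjusted p 0.117) and with the labels of the sample characteristics. At day 20 the control values were 473, 698 and 1173 CPM, and topsoil pigs 1 to 5 had 600, 910, 1082, 637 and 631 CPM. Its rise between day 20 and day 56 came to a log2 fold change of 0.63 (SE 0.24, adjusted p 0.079 from edgeR), and it missed the threshold when any of 5 pigs (control pig 3 and topsoil pigs 1, 2, 4 and 5) was left out, with an adjusted p of up to 0.222. It also missed it with library sizes without miR-486 (adjusted p 0.398), TMM scaling (0.153), DESeq2 (0.114), every miRNA with a read kept (0.183) and the labels of the sample characteristics (0.981).

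miR-26b-3p, the minor arm of the miR-26b hairpin, was also measured from few reads. Its control values were lowest at 0, median 4.76 and highest at 24.7 CPM at day 11, and 0.103, 9.69 and 13.7 CPM at day 56. Topsoil pigs 1 to 5 had 5.24, 2.85, 5.79, 5.14 and 4.45 CPM at day 11 and 8.46, 8.59, 11.2, 11.5 and 12.7 CPM at day 56. The topsoil ranges did not overlap, which was not counted over all miRNAs, while the control ranges did. At day 56, 12 of 13 pigs had more than at day 11 (11 of 13 without miR-486). It had a log2 fold change of 0.95 (SE 0.78, adjusted p 0.431 from edgeR) and was not called. With library sizes without miR-486 this was 0.60 (SE 0.80, adjusted p 0.692 from edgeR).

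**Figure D2:**
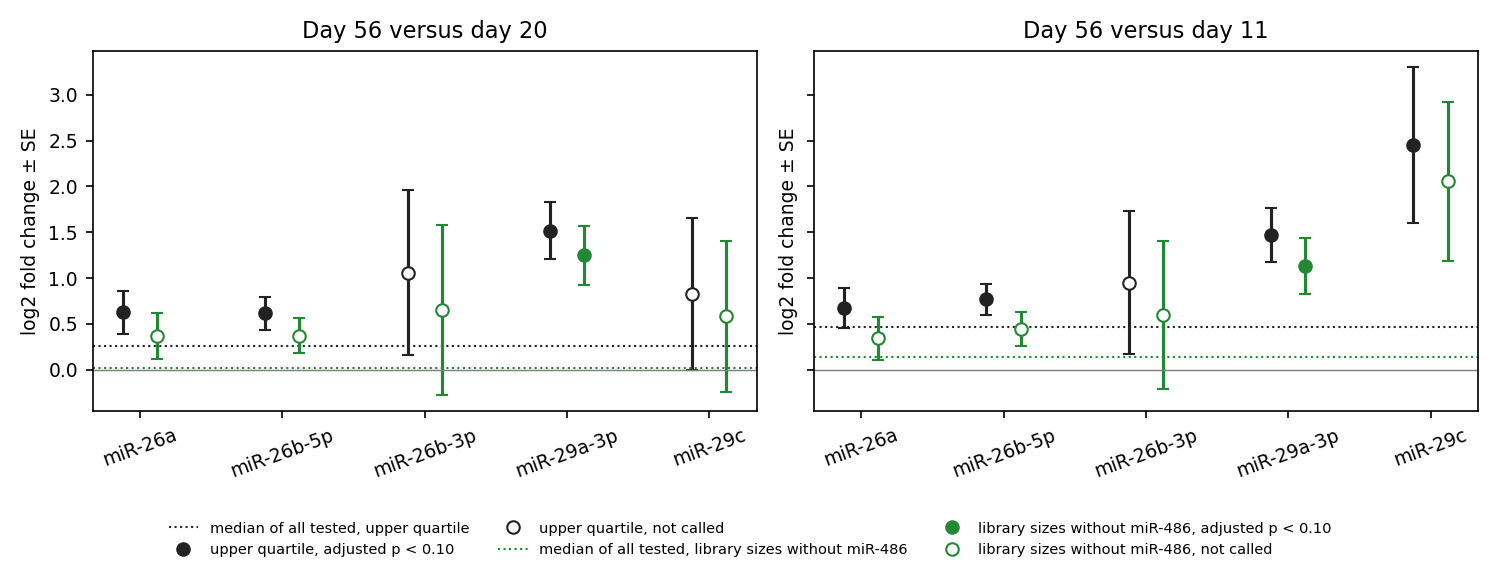
Log2 fold changes with standard errors (vertical axis) of 5 members from day 20 to day 56 and from day 11 to day 56, from edgeR with upper-quartile scaling (black) or library sizes without miR-486 (green). Filled points have an adjusted p below 0.10 and dotted lines give the median of all 209 miRNAs. miR-29a-3p is called under both scalings in both panels, while miR-26a and miR-26b-5p are called with the upper quartile and not with the other scaling, and miR-29b is not drawn because its day 11 controls are at 0.

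Over all ages, levels of the members were lower where miR-486 took a larger share of the counts, even with miR-486 left out of the scale. Over the 39 libraries the Spearman correlation of the CPM without miR-486 with the share of miR-486 was -0.72 for miR-29a-3p, -0.73 for miR-29b, -0.52 for miR-26b-5p, -0.50 for miR-26a, -0.47 for miR-26b-3p and -0.39 for miR-29c. These points share pigs, ages and depth, so the values are a description. Within the 13 libraries of 1 age the correlation for miR-29a-3p was -0.24 at day 11, -0.56 at day 20 and -0.48 at day 56. That for miR-26a was -0.57, -0.38 and 0.12, so it was not negative at day 56. Within 1 age the others ranged from -0.64 (miR-29b at day 20) to 0.45 (miR-26b-3p at day 11), and miR-29c at day 20 had 0.082.

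Marker miRNAs of blood cell types were summed at day 11 and day 56. The summed CPM without miR-486 of the 4 lymphocyte miRNAs looked at (miR-150, miR-342, miR-181a and miR-181b) ranged from 129762 to 393963 in control pigs at day 11 and from 306445 to 529311 at day 56. In topsoil pigs it ranged from 156073 to 258453 and from 265518 to 424509. The 4 leukocyte entries (both arms of miR-142 and miR-155) summed to medians of 5995 and 12779 CPM without miR-486 in control pigs at these ages, and to 6789 and 15528 in topsoil pigs. The red cell miRNAs other than miR-486, miR-451 and miR-144, had medians of 1780 (control) and 2568 (topsoil) CPM without miR-486 at day 11 and of 732 and 711 at day 56. miR-223 of myeloid cells had medians of 180 and 164 CPM without miR-486 in control pigs and 67.1 and 186 in topsoil pigs. The 8 platelet and vascular entries, of which miR-143-5p was at 0, had medians of 413 and 189 in control pigs and 418 and 119 in topsoil pigs. By total reads over all libraries, most of the lymphocyte sum was miR-181a (24634485 reads, with miR-150 next at 1420244). Most of the leukocyte sum was miR-142-5p (986537, with miR-142-3p next at 19622). Of the platelet and vascular sum, most was miR-143-3p (22708, with miR-126-5p next at 3040). miR-451 had 204396 reads and miR-144 5366. The sums thus mainly follow these most abundant miRNAs, and the other listed miRNAs are not given by age. These marker levels were not tested between ages. Their part in the changes of the members was not tested, and in bulk PBMC RNA fewer cells of a type and less miRNA per cell cannot be told apart.

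**Figure D3:**
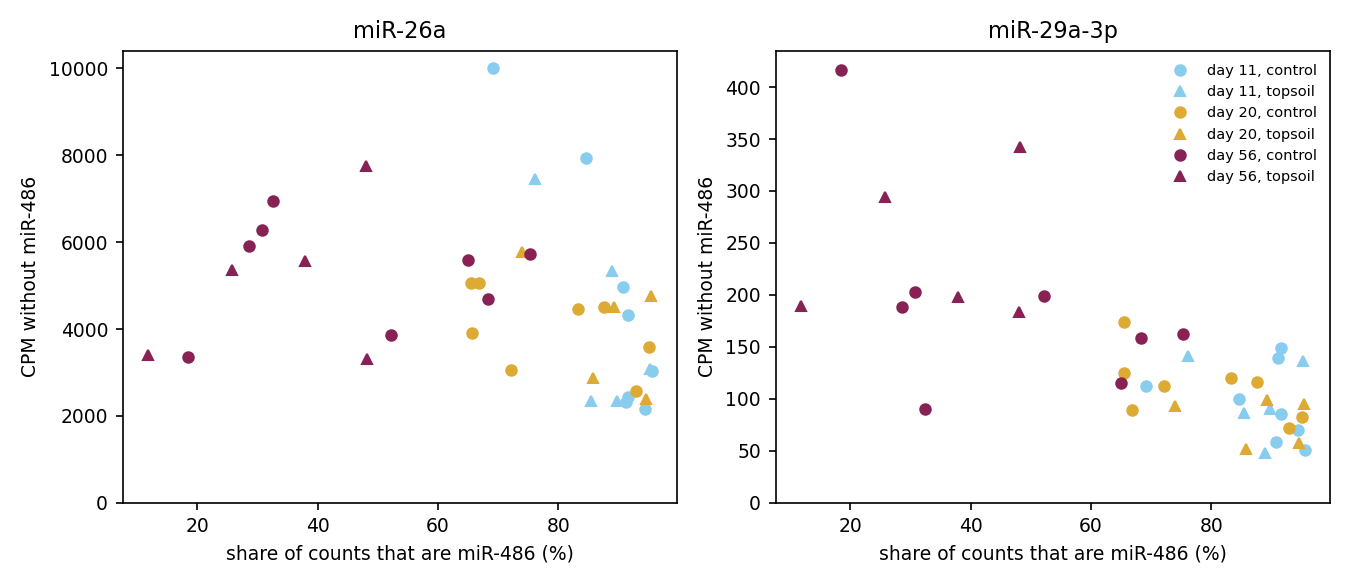
CPM without miR-486 (vertical axis) of miR-26a and miR-29a-3p against the percentage of counts that are miR-486 (horizontal axis), 1 point per library, with age by colour and treatment by symbol. Libraries of day 56 have 11.8% to 75.3% miR-486 and hold the highest miR-29a-3p values, up to 416 CPM, while miR-26a reaches its highest value, 10011 CPM, in a control library of day 11.

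The treatment comparison asked whether pigs exposed to topsoil differed from control pigs at each age. No member was called by edgeR in these comparisons. At day 11, 0% of all miRNAs were called, with 7 at an unadjusted p below 0.05 in edgeR and 1 called by DESeq2, which was no member. At day 20, 0.957% were called, with 28 at an unadjusted p below 0.05. At day 56, 0% were called, with 5 at an unadjusted p below 0.05 and 0 called by DESeq2. The treatment by age interaction called no member and 0% of all miRNAs, with 22 at an unadjusted p below 0.05 in edgeR and 0 called by DESeq2. The limma fit with pig as a random effect called 2 of 209, neither of them a member.

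The member with the smallest p between treatments was miR-26b-5p at day 20, the last day of exposure. Its level in the topsoil pigs was 206, 228, 219, 107 and 196 CPM, and in the control pigs it was lowest at 208, median 291 and highest at 375 CPM. The 2 groups overlapped only at their edges, with the topsoil value higher in 2 of 40 pairs of a topsoil and a control pig. The log2 fold change of topsoil over control was -0.66 (SE 0.27, p 0.026, adjusted p 0.315 from edgeR), beside a median of -0.29 over all miRNAs. With library sizes without miR-486 it was -0.70 (SE 0.24, adjusted p 0.294 from edgeR). DESeq2 gave -0.58 (SE 0.19) with an adjusted p of 0.044, and with it 1 of 6 members was called lower at day 20, against 3.35% of all miRNAs.

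At day 11 the topsoil value of miR-26b-5p was the higher one in 30 of 40 such pairs, and at day 56 in 14 of 40, and neither difference was called. From day 11 to day 20 its log2 fold change was 0.72 (SE 0.21, adjusted p 0.076 from edgeR, with 5.26% of all miRNAs called) in the control pigs alone and -0.41 (SE 0.28, adjusted p 0.996, with 0% called) in the topsoil pigs alone. The medians of all miRNAs in these contrasts were 0.30 in control pigs and -0.086 in topsoil pigs. The difference between the changes of miR-26b-5p was -1.12 (SE 0.35, adjusted p 0.456 from edgeR), beside a median of -0.48 over all miRNAs. The joint interaction test gave p 0.011 and an adjusted p of 0.444 from edgeR, the 4th smallest p of the 209. Without topsoil pig 4, the lowest at day 20, no member had an unadjusted p below 0.05 in this test or between treatments at day 20, and for miR-26b-5p the interaction's adjusted p was 0.798 and the day 20 log2 fold change -0.44 (adjusted p 0.625 from edgeR). miR-29a-3p at day 20 had a log2 fold change of -0.67 (SE 0.45, adjusted p 0.553 from edgeR), with topsoil higher in 5 of 40 pairs, and miR-29c one of 0.71 (SE 0.75, adjusted p 0.707). With the labels of the sample characteristics the difference of miR-26b-5p at day 20 was 0.13 and that of miR-29a-3p 0.26 (adjusted p 0.969 from edgeR for both).

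The marker sums of day 20 also had unequal medians in control and topsoil pigs, in CPM without miR-486. They were 9641 and 6078 for the leukocyte list, 4005 and 1900 for miR-451 with miR-144, and 268 and 538 for the platelet and vascular list. For the lymphocyte list they were 181278 and 203936, and for miR-223 they were 166 and 186. The ranges of the treatments overlapped for each list, and the part of these levels in the treatment differences was not tested. By total reads over all libraries, the lymphocyte list was mostly miR-181a, the leukocyte list miR-142-5p and the platelet and vascular list miR-143-3p.

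Ratios of 2 members of 1 family within a library do not depend on how libraries are scaled. miR-26a made up between 60.5% and 89.0% of the reads of miR-26a and miR-26b-5p, with a median of 76.9%. The minor arm miR-26b-3p was at most 17.3% of the reads of both arms of miR-26b, with a median of 2.39%. Within miR-29, miR-29a-3p made up between 63.9% and 100% of the reads of the 3 members, with a median of 88.6%, and the lowest share was in a topsoil library of day 20.

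Of 12 tests of ratios, none passed an adjusted p of 0.10, and 3 had an unadjusted p below 0.05. At day 20 the mean log2 ratio of miR-26a to miR-26b-5p was 1.40 ± 0.42 (SD, n = 8) in control pigs and 2.02 ± 0.43 (SD, n = 5) in topsoil pigs. The difference was 0.62 (2-sided exact permutation test, p = 0.026, adjusted p = 0.112). The mean log2 ratio of miR-29a-3p to miR-29c at day 20 was 3.12 ± 0.75 (SD, n = 8) in control pigs and 1.95 ± 0.89 (SD, n = 5) in topsoil pigs. The difference was -1.17 (2-sided exact permutation test, p = 0.028, adjusted p = 0.112). Over all 13 pigs the same ratio fell from 4.46 at day 11 to 2.67 at day 20 in the mean, lower in 10 of 13 pigs, a difference of -1.80 (2-sided exact sign-flip test, p = 0.025, adjusted p = 0.112). At day 11, 4 of 13 libraries had 0 reads of miR-29c, so their ratios are set by the 0.5 added to each count and by depth, and the size of this difference cannot be relied on. From day 11 to day 56 the ratio of miR-26a to miR-26b-5p differed by -0.08, with 6 of 13 pigs higher (2-sided exact sign-flip test, p = 0.738, adjusted p = 0.805).

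**Figure D4:**
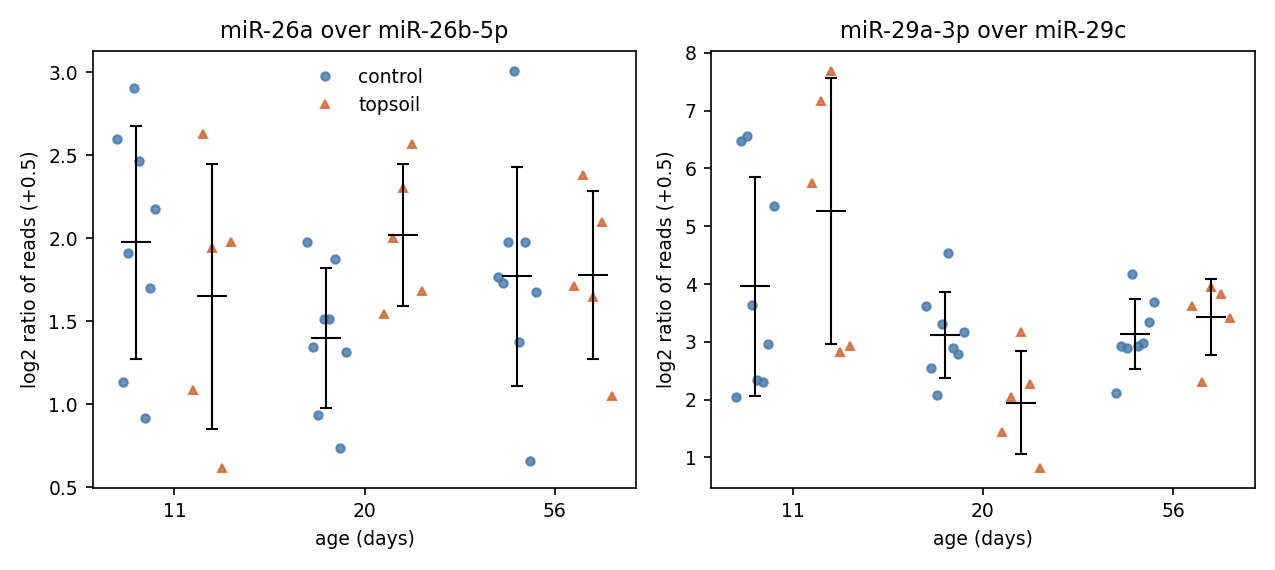
Log2 ratio of reads, with 0.5 added to each count (vertical axis), of miR-26a over miR-26b-5p and of miR-29a-3p over miR-29c by age (horizontal axis, days) in control pigs (circles) and topsoil pigs (triangles), 1 point per library with mean and SD. At day 20 the topsoil mean of the first ratio is 2.02 against 1.40 and that of the second is 1.95 against 3.12, with overlapping ranges, and the widest spread is that of the second ratio at day 11, where miR-29c has few reads.

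The members were correlated to unequal degrees. Over the 39 libraries the Spearman correlation of log2(CPM without miR-486 + 1) was 0.34 between miR-26a and miR-26b-5p, 0.46 between miR-29a-3p and miR-29c, 0.58 between miR-29a-3p and miR-29b, and 0.18 between miR-29b and miR-29c. Between the families it ranged from 0.071 (miR-26b-3p with miR-29c) to 0.57 (miR-26b-5p with miR-29b), with 0.27 for miR-26a and 0.52 for miR-26b-5p with miR-29a-3p. The arms of miR-26b had a correlation of 0.10. With the mean of each treatment and age removed, miR-29a-3p had 0.29 with miR-29c, 0.35 with miR-29b, 0.29 with miR-26b-5p and -0.018 with miR-26a, and miR-26a had 0.26 with miR-26b-5p. The highest value was then 0.51, between miR-26b-5p and miR-29c, followed by 0.42 between miR-26b-3p and miR-29a-3p. The libraries share pigs, ages and a range of depths, so these are descriptions.

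Of the 203 other tested miRNAs, those most like miR-26a on this measure were miR-30d (0.55), miR-149 (0.55) and let-7f-3p (0.53). Those most like miR-29a-3p were miR-21-5p (0.72), miR-142-5p (0.69) and miR-664-3p (0.69). With the mean of each treatment and age removed these were 0.29, 0.37 and 0.58, in the reverse order, and those for miR-26a were 0.59, 0.41 and 0.47. With upper-quartile scaled CPM the lists kept 1 of 3 names each, miR-30d for miR-26a (0.62) and miR-21-5p for miR-29a-3p (0.72).

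Host and target genes were looked up in the matching table of mRNA counts. In 15 of 34 mRNA columns the counts of 2 Y-linked genes contradicted the sex recorded for the pig, so treatment and age were not used there and levels are given over all 34 columns. CTDSP2, the host of the annotated MIR26A, had a median of 31.7 CPM, from 6.01 to 96.1. Such levels do not assign the reads of miR-26a to a host gene. CTDSP1 had a median of 78.0 CPM, and CTDSPL was close to undetected at a median of 0.143 CPM and at most 13 reads.

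Among miR-26 targets, EZH2 had a median of 15.2 CPM (4.28 to 78.1), the cyclin CCND2 54.1 CPM (13.9 to 156) and the kinase CDK6, also a miR-29 target, 5.39 CPM (0.408 to 40.3). Of the miR-29 targets, the survival factor MCL1 had a median of 338 CPM (78.0 to 753). The DNA methyltransferases DNMT3A and DNMT3B had medians of 42.9 and 12.7 CPM. TBX21, EOMES and IFNG had medians of 30.4, 14.2 and 4.70 CPM. The collagens COL1A1 and COL3A1, made by fibroblasts, had medians of 0.453 CPM (0 to 27.5) and 0.403 CPM (0 to 44.3).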

How the data were processed

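Small RNA of PBMCs was sequenced in 39 libraries of 13 pigs (8 control and 5 topsoil, each at 3 ages). The authors deposited whole-number counts per mature miRNA and hairpin, made by miRDeep2 on Sscrofa11.1, without normalization. The version of miRDeep2 is not given in the sources used here. Per the labels, reads were checked with FastQC 0.11.3 and trimmed with Trim Galore 0.4.5. The authors deposited mRNA counts per Ensembl gene (STAR 2.5.4a, featureCounts 2.0.3), and 2 mRNA columns that carry 1 name were not used here. The counts were taken as deposited, and CPM was computed from them.

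Counts of 209 miRNAs were fitted in edgeR 4.0.16 (R 4.3.3) with the quasi-likelihood test, scaled by the 75% quantile, with pig as a block, age, RQI (the RNA quality index, from the study's sample list) and the treatment by age terms, or at 1 age with RQI. Benjamini-Hochberg adjustment covered all 209 with a threshold of 0.10. Pigs were sampled at each age, so pig pairs the libraries, and deviations from group means correlated by 0.067 on average within a pig and by -0.008 between pigs. No 2 libraries of 1 group agreed within sampling noise. Ratios were tested by exact permutation or sign flips in scipy 1.17.1, adjusted over 12 tests. The code was tested on simulated data.

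The alternatives were other scalings, filters, DESeq2 1.42.0, limma 3.58.1, no RQI, no replicate block and each pig or the shallowest library left out. The labels of the sample characteristics were added as an alternative after the data were seen. Their age and interaction fits had no pig block, so labels and block changed together. Every member was named, with the 3 miRNAs most like the most abundant member of each family and the fixed lists of markers, hosts and targets. The members and lists were chosen with earlier results of these data known. The mature sequence of miR-26b was not analysed here. One listed target gene is not reported here.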

Additional observations from a re-analysis of the deposited data

Results flagged for a closer look

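In 35 groups of 1 of the 6 tested members, treatment and age with any spread in the scaled CPM, 5 held a library far from the others by Dixon's test at 95%, which chance gives in about 1 of 20 groups. All values here are upper-quartile scaled CPM. miR-26b-3p reached 24.7 CPM in control pig 3 at day 11, where the next highest control pig had 7.24. miR-26b-5p was lowest in topsoil pig 4 at day 20, with 107 CPM against 196 in the next lowest, and 804 against 823 CPM without miR-486. Topsoil pig 3 at day 20 had the highest miR-29a-3p, 23.8 against 14.7 CPM, and the highest miR-29b, 1.20 against 0.297 CPM from 7 and 5 reads. For miR-29a-3p the values without miR-486 were 99.2 and 94.8 CPM, and this library had the lowest RQI of all, 7.4. miR-29c reached 8.74 CPM in topsoil pig 2 at day 56, where the next highest had 4.51. No cause was tested for these libraries.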

How the results depend on the processing

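Of 6 members, 5 were called from day 11 to day 56 and 3 from day 20 to day 56. These counts came to 2 and 1 with library sizes without miR-486, where 42 and 32 of all 209 miRNAs were called, and to 0 and 0 with the labels of the sample characteristics, where 0 of all 209 were called. The 5 and the 2 include miR-29b, which passed the filter on low counts through the later ages, so they are no support for the share of members. At day 20, DESeq2 called 1 member between treatments where edgeR called 0. The number of ratio tests called was 0, and between 0 and 2 when 1 pig was left out, with 2 called without control replicate 1 and 1 without topsoil replicate 3. The other counts of members called stayed within 1.5 times under the alternatives run. Without the replicate block the counts were again 5 and 3, so the pairing by pig changed neither, and unpaired tests of the ratios across ages called 0. From day 20 to day 56 miR-26a lost its call without control replicate 3 or topsoil replicate 1, 2, 4 or 5, and miR-26b-3p gained one without control replicate 6 (adjusted p 0.0995 from edgeR). Over all miRNAs, 53 were called from day 11 to day 56 and 162 with total counts. From day 20 to day 56, 34 were called, and 108 with total counts, 56 with DESeq2 and 10 higher with library sizes without miR-486. Between treatments at day 20, 2 were called, and 9 with DESeq2.

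Among the differences printed in the report, miR-29c at day 20 between treatments became -0.22 with total counts. With the sample characteristics the log2 fold change from day 20 to day 56 became -0.24 for miR-26b-5p and -0.0452 for miR-29a-3p, that from day 11 to day 56 became -0.0370 for miR-26b-5p, and the treatment differences at day 20 became 0.13 for miR-26b-5p and 0.26 for miR-29a-3p. The cause was not tested. miR-29a-3p was called from day 11 to day 56 in 25 of 26 alternatives, miR-26b-5p in 24 and miR-26a in 22. Of 35 further differences not called, 17 changed sign under an alternative, with adjusted p of 0.736 or more. The changes within 1 treatment were not recomputed under the alternatives. Depth limits the rarer members, miR-29b and miR-29c among them, since libraries of day 11 held as few as 389906 counts outside miR-486.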
